A study of Rattus norvegicus with 40 samples.

Results

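The miRNA miR-124 was followed through both of its mature arms, rno-miR-124-3p and rno-miR-124-5p, in rat plasma after traumatic brain injury (TBI). These arms are 2 of the 752 mature miRNAs in the deposited count matrix and were taken by name. The arms are cut from opposite sides of the same hairpin precursor, and the 3p arm is the strand that is mostly loaded into the silencing complex. MiR-124 is one of the most abundant miRNAs of the mammalian brain, is strongly enriched in neurons and represses transcripts of non-neuronal programmes such as Ptbp1 and components of the REST pathway. Its appearance in blood is widely studied as a sign of injury to neural tissue. The RefSeq gene table of assembly GRCr8 lists 3 rat genes for it, Mir124-1, Mir124-2 and Mir124-3.

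Adult male Sprague-Dawley rats received either a lateral fluid-percussion injury, which strikes the exposed dura with a pressure wave, or a sham operation with anesthesia and craniotomy but no impact. Tail-vein plasma was taken from each rat on day 2 (D2) and day 9 (D9), and its small RNA was sequenced. There were 20 rats, of which 4 had the sham operation and 16 the injury. Of the injured rats, 7 had epilepsy in video-EEG during the sixth month (TBI+) and 9 did not (TBI−). Each rat gave 1 library per day, so there were 40 libraries. The sham operation itself opens the skull, and rats without any operation were not analysed here.

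The library total, the sum of counts over all miRNAs, set how little miR-124 could be seen. On D2 it lay between 594332 and 1331905 in sham rats, with a median of 989977, and between 404542 and 2562083 in TBI rats, with a median of 1227990. On D9 it lay between 140636 and 358202 in sham rats and between 332161 and 2864893 in TBI rats. Levels are given in CPM, the count scaled to a library total of 1000000. A count of 0 allows up to 3 counts, and this floor is given per library. It corresponded to 2.25 to 5.05 CPM in sham rats on D2, to 1.17 to 7.42 CPM in TBI rats on D2, to 8.38 to 21.3 CPM in sham rats on D9 and to 1.05 to 9.03 CPM in TBI rats on D9. Such floors and the counting intervals below cover counting error only, since reads copied by PCR are not independent molecules.

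Counts of both arms were multiples of 3 in every library. Among the 462 miRNAs with counts in at least 10 libraries, rno-miR-124-3p and rno-miR-124-5p were the only 2 whose counts were all multiples of 3. Of the 19 such miRNAs with 2 genes by name in the RefSeq table, 0 had only even counts, and of the 404 with 1 gene by name 5 had only even counts. Some of the 19 had mostly even counts, such as miR-7a-5p (22 of 23 libraries with counts) and miR-129-5p (31 of 33). Others did not, such as miR-128-3p (18 of 40) and let-7c-5p (14 of 40). With 1 gene by name, miR-322-5p had even counts in 39 of 40. How reads that match several genome positions were counted is not given in the sources used here, and whether each miR-124 read was counted once per gene was not tested. Counts are given as deposited. Divided by 3, every miR-124 level would be lower by that factor. Ratios of mean levels between groups with counts and the share of the arms would not change. Log2 fold changes fitted by edgeR did change. For D9 over D2 in TBI rats they went from −5.39 to −5.05 for the 3p arm and from −4.62 to −4.31 for the 5p arm. The lower bounds, the lowest levels on D2 and the ranks by level are also given with the counts divided by 3.

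On D2, miR-124 was present in the plasma of every TBI rat and was not seen in any sham rat. The count of rno-miR-124-3p was 0 in sham rats 1, 2, 3 and 4. In the 16 TBI rats the level of rno-miR-124-3p had a lowest value of 11.1 CPM, a median of 29.5 CPM and a highest value of 71.7 CPM, which came from counts between 12 and 120. The groups did not overlap. With the counts as deposited, all 16 TBI levels lay above the highest floor of a sham library, 5.05 CPM. Divided by 3, the lowest was 3.69 CPM and 13 of the 16 lay above it.

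The 5p arm showed the same split. The count of rno-miR-124-5p was 0 in all 4 sham rats, and in the TBI rats its level had a lowest value of 6.34 CPM, a median of 18.7 CPM and a highest value of 39.2 CPM, from counts between 6 and 51. As deposited, these 16 levels also lay above the highest sham floor. Divided by 3, the lowest was 2.11 CPM and 11 of the 16 lay above it. Both arms were the only 2 of the 565 miRNAs with any count on D2 (0.354%) that had counts in every TBI and in no sham library. The lowest TBI level lay above the highest sham level for 7 of the 565 (1.24%), both arms among them.

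Mean levels on D2 were 31.1 ± 16.1 CPM for rno-miR-124-3p and 19.3 ± 9.37 CPM for rno-miR-124-5p in TBI rats (SD, n = 16), against 0 in sham rats (n = 4). With each sham library set to 3 counts, a mean floor of 3.52 CPM, the 3p arm was at least 8.86-fold higher and the 5p arm at least 5.49-fold higher in TBI rats. With the miR-124 counts divided by 3 and the floor kept at 3, these bounds were 2.95-fold and 1.83-fold. The quasi-likelihood test of edgeR called both arms, with an adjusted p of 1.7e-06 for the 3p arm and 5.9e-06 for the 5p arm. The same test called 35 of the 565 miRNAs, of which 18 (3.19%) were higher in TBI rats. By their p, the 3p arm ranked 1 and the 5p arm ranked 2. Exact permutation of the injury labels over the mean CPM, with 4845 ways to choose the sham rats, gave p = 0.00041 for each arm (two-sided, adjusted p = 0.0018 over 26 such tests). In plasma, the number of cells that release a miRNA and the amount released per cell cannot be told apart.

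**Figure D1:**
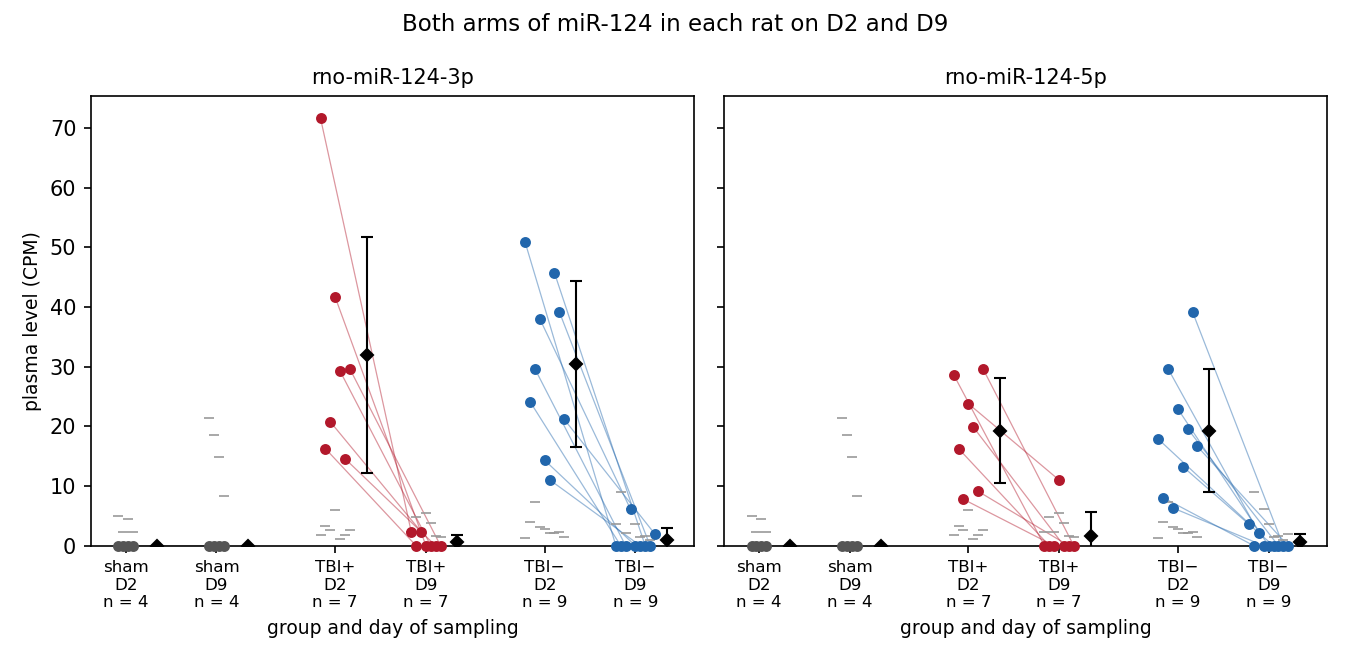
Level of rno-miR-124-3p (left) and rno-miR-124-5p (right) in CPM for each rat, by group and day; thin lines join the 2 samples of a rat, diamonds with bars are the mean and SD, and grey ticks are the level that 3 counts would have had in that library. All sham rats lie at 0 on both days, all TBI rats lie at 6.34 CPM or more on D2, and the highest level on D9 is 11.01 CPM, in the 5p arm.

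Whether the level on D2 was related to the later outcome was compared between TBI+ and TBI− rats. The 3p arm had a lowest value of 14.6 CPM, a median of 29.3 CPM and a highest value of 71.7 CPM in the 7 TBI+ rats. In the 9 TBI− rats it had a lowest value of 11.1 CPM, a median of 29.7 CPM and a highest value of 50.9 CPM. The ranges overlapped between 14.6 and 50.9 CPM, and the highest level of all was that of TBI+ rat 1.

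For the 5p arm the lowest value, the median and the highest value were 7.79, 19.9 and 29.7 CPM in TBI+ rats. In TBI− rats they were 6.34, 17.9 and 39.2 CPM, so that the highest level of this arm was in a TBI− rat, rat 8. The mean of rno-miR-124-3p was 32.0 ± 19.8 CPM in TBI+ (SD, n = 7) and 30.5 ± 13.9 CPM in TBI− rats (SD, n = 9). The mean of rno-miR-124-5p was 19.3 ± 8.76 CPM in TBI+ (SD, n = 7) and 19.3 ± 10.3 CPM in TBI− rats (SD, n = 9).

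For neither arm was the difference between the outcome groups larger than the spread between rats. The difference of the means, TBI+ minus TBI−, was 1.51 CPM for the 3p arm, with an interval of −15.8 to 19.7 CPM at a confidence level of 95% from the exact permutation test (two-sided p = 0.852, adjusted p = 1.0). For the 5p arm it was 0.0301 CPM, with an interval of −10.5 to 10.5 CPM (exact permutation test, two-sided p = 0.991, adjusted p = 1.0). The log2 fold change from edgeR was −0.02 (SE 0.33) for the 3p arm and −0.06 (SE 0.35) for the 5p arm, each with an adjusted p of 1.0. In this comparison edgeR called 0 of 565 miRNAs (0.0%), DESeq2 called 0, and 38 had an unadjusted edgeR p below 0.05. The permutation test did not reject the differences within these intervals. The smallest difference detectable with these numbers of rats was not computed.

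Each outcome group differed from sham rats on its own. The 3p arm was at least 9.10-fold higher in TBI+ rats (edgeR adjusted p = 2.1e-06, n = 7 and 4) and at least 8.67-fold higher in TBI− rats (edgeR adjusted p = 1.6e-06, n = 9 and 4). For the 5p arm the bounds were 5.50-fold in TBI+ (edgeR adjusted p = 9.7e-06) and 5.49-fold in TBI− rats (edgeR adjusted p = 6.3e-06). Both comparisons use the same 4 sham rats. The background of miRNAs called higher was 13 of 565 (2.3%) for TBI+ and 18 of 565 (3.19%) for TBI− rats.

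Libraries carry numbers in their labels that form short consecutive blocks with gaps between them. For a comparison among nearby numbers, the blocks were divided here into 3 runs by the spacing of the blocks and the groups they hold. The labels give no such runs and do not say what the numbers stand for, so a run is not known to be a batch. On D2, the 4 sham rats and TBI+ rats 1 to 4 shared the first run. Within it the 3p arm lay at 16.3 to 71.7 CPM and the 5p arm at 7.79 to 28.7 CPM in the TBI+ rats, against 0 in the sham rats (edgeR adjusted p = 4.4e-15 and 1.7e-08). No run held sham and TBI− libraries of the same day, so TBI− rats could not be compared with sham rats in this way. In the second run, TBI+ rats 5 to 7 and TBI− rats 1 to 5 could be compared on D2, with a log2 fold change, TBI+ over TBI−, of −0.32 for the 3p arm and 0.28 for the 5p arm (edgeR adjusted p = 1.0 for both).

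By D9 miR-124 had nearly left the counts. The 3p arm had 3 counts in each of 4 TBI rats, TBI+ rats 1 and 3 and TBI− rats 4 and 9, and 0 counts in the other TBI rats. These counts correspond to levels of 2.31, 2.37, 6.11 and 1.94 CPM. The 5p arm had counts in 3 TBI rats, with 6 counts or 11.01 CPM in TBI+ rat 4, and 3 counts each or 3.73 and 2.17 CPM in TBI− rats 1 and 3. No TBI rat had counts of both arms on D9, 7 had counts of one arm and 9 had counts of neither. All 4 sham rats were at 0 for both arms.

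Means on D9 were 0.795 ± 1.67 CPM for the 3p arm and 1.06 ± 2.85 CPM for the 5p arm in TBI rats (SD, n = 16). The mean floor was 3.31 CPM in TBI and 15.8 CPM in sham rats, so both groups lay under the floor and no fold is given. The sham libraries were shallow on this day, and every miR-124 level measured in TBI rats on D9 other than that of TBI+ rat 4 lay below the floor of each sham library. A difference of that size was not detectable at this depth. Neither arm was called against sham rats (edgeR adjusted p = 0.748 for 3p and 0.773 for 5p in all TBI rats, 0.763 and 0.749 in TBI+, 0.790 and 0.814 in TBI− rats). Exact permutation of the mean CPM of all TBI against sham rats gave p = 0.751 for 3p and 0.982 for 5p (two-sided, adjusted p = 1.0). The numbers of miRNAs called were 19 of 541 in all TBI rats (3.51%), 10 of 541 in TBI+ (1.85%) and 26 of 541 in TBI− rats (4.81%), with both directions together. Without sham rat 2, edgeR called 0 in each of these comparisons, with 70, 75 and 63 miRNAs at an unadjusted p below 0.05, and DESeq2 was not run without this rat.

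Between TBI+ and TBI− rats the means on D9 were 0.667 ± 1.14 and 0.894 ± 2.06 CPM for the 3p arm, and 1.57 ± 4.16 and 0.655 ± 1.36 CPM for the 5p arm (SD, n = 7 and 9). The differences were smaller than the spread (exact permutation tests, two-sided p = 1.0 for 3p and 0.875 for 5p, adjusted p = 1.0). The edgeR test gave adjusted p = 0.976 for 3p and 0.959 for 5p and called 0 of 541 miRNAs (0.0%). Its log2 fold change, TBI+ over TBI−, was 0.20 (SE 0.88) for 3p and 0.71 (SE 1.18) for 5p. For 3p this sign is opposite to that of the difference of the means. DESeq2 also called 0, and 22 had an unadjusted edgeR p below 0.05.

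The same rats were sampled on both days, which allowed the change within each rat to be measured. The level of rno-miR-124-3p was lower on D9 than on D2 in 16 of 16 TBI rats, and so was that of rno-miR-124-5p. For the 3p arm the days did not overlap, since the lowest level on D2 was 11.1 CPM and the highest on D9 was 6.11 CPM. For the 5p arm they overlapped through TBI+ rat 4, whose 11.01 CPM on D9 lay above the lowest D2 levels of other rats. Of 572 miRNAs with any count in TBI rats, 6 (1.05%) had every D2 level above every D9 level, rno-miR-124-3p among them.

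The mean change from D2 to D9 was −30.3 ± 15.9 CPM for the 3p arm and −18.2 ± 9.33 CPM for the 5p arm (SD, n = 16). Summed over the 16 rats, the counts of the 3p arm were 675 on D2 and 12 on D9, a rate 54.9 times higher on D2 (exact 95% counting interval 21.1 to 203, from the counts divided by 3). Those of the 5p arm were 399 and 12, a rate 32.5 times higher on D2 (exact 95% counting interval 12.4 to 121, from the counts divided by 3). In the ratio of mean CPM, D2 over D9, in which each rat has the same weight, the values were 39.2 for the 3p arm and 18.3 for the 5p arm. These ratios depend strongly on the highest D9 library of each arm, and both would be higher without it. For 3p it was TBI− rat 4 at 6.11 CPM, and for 5p it was TBI+ rat 4 at 11.01 CPM. By outcome group, the ratio for 3p was 47.9 in TBI+ and 34.1 in TBI− rats, and for 5p it was 12.3 and 29.5. The log2 fold change from edgeR, D9 over D2, was −5.39 (SE 0.46, adjusted p = 7.6e-13) for rno-miR-124-3p and −4.62 (SE 0.52, adjusted p = 1.2e-09) for rno-miR-124-5p. By this estimate the arms ranked 1 and 2 in their fall among 581 miRNAs, of which 105 (18.1%) were called lower on D9, and by their p they ranked 3 and 11. These ranks hold for the counts as deposited. With the miR-124 counts divided by 3, the arms were at −5.05 and −4.31. The 5p arm then fell by less than miR-129-5p, which was at −4.46 in the fit of the deposited counts. Exact permutation of the signs of the changes gave p = 3.1e-05 for both arms (two-sided, the smallest that 16 pairs allow, adjusted p = 0.00040).

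Both outcome groups showed the fall. In TBI+ rats the log2 fold change was −5.20 (SE 0.68, edgeR adjusted p = 7.9e-08) for the 3p arm and −4.29 (SE 0.77, edgeR adjusted p = 6.9e-05) for the 5p arm. In TBI− rats it was −5.56 (SE 0.63, edgeR adjusted p = 5.8e-09) and −4.89 (SE 0.71, edgeR adjusted p = 9.0e-07). The background of miRNAs called lower on D9 was 65 of 581 (11.2%) in TBI+ and 75 of 581 (12.9%) in TBI− rats. The changes themselves did not differ between the groups beyond their error, with a difference, TBI+ minus TBI−, of 0.35 (SE 0.96) for 3p and 0.60 (SE 1.13) for 5p on the log2 scale (edgeR adjusted p = 1.0 for both). For this difference edgeR called 0 of 581 miRNAs (0.0%), DESeq2 called 1, and 42 had an unadjusted edgeR p below 0.05.

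The change between the days differed between TBI and sham rats, in which it was 0 in 4 of 4. Exact permutation of the injury labels over the change of each rat gave p = 0.00041 for each arm (two-sided, adjusted p = 0.0018). Since sham levels on D9 could have been up to 21.3 CPM without a count, the change in sham rats is known only within those floors. The corresponding term of edgeR could not be estimated for miR-124 (adjusted p = 1.0), as all sham libraries were at 0 on both days, while it called 22 of 581 miRNAs (3.79%). DESeq2 called this term for both arms, with adjusted p = 0.00029 for 3p and 0.0032 for 5p. Its estimates of the term were −8.06 for 3p and −7.18 for 5p on the log2 scale. They exceeded its own fall in TBI rats, −5.62 and −4.75, although its change in sham rats was 0. With all sham libraries at 0, this call does not measure a change in sham rats.

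Within each of the 3 runs the levels on D2 were also above those on D9. In the first run, the TBI rats of D2 lay at 16.3 CPM or more for the 3p arm and 7.79 CPM or more for the 5p arm, and those of D9 at 6.11 CPM or less and 3.73 CPM or less. In the second run, all 4 TBI libraries of D9 were at 0, and those of D2 lay at 14.3 CPM or more and 6.34 CPM or more. In the third run, the TBI rats of D2 lay at 11.1 CPM or more and 13.3 CPM or more, and those of D9 at 2.37 CPM or less and 11.01 CPM or less. Apart from TBI− rat 5, which had both of its libraries in the second run, different rats stand for the days within a run.

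Ordered by mean level, TBI+ and TBI− rats on D2 stood together at the top for both arms. They were followed by the TBI rats on D9, with TBI− before TBI+ for the 3p arm and TBI+ before TBI− for the 5p arm, differences within their spread. Each of these orders would turn without the highest library of the leading group. For 3p that library was TBI− rat 4 at 6.11 CPM, and for 5p it was TBI+ rat 4 at 11.01 CPM. Sham rats were at 0 on both days. In TBI rats on D2 the 3p arm ranked 194 and the 5p arm ranked 221 by mean CPM among the 555 miRNAs with counts, or 263 and 290 with the miR-124 counts divided by 3.

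The arms were compared with each other through the share of miR-124 counts on the 3p arm, over libraries with at least 10 counts on both together. All 16 TBI libraries of D2 and no library of D9 reached this number. The share was 60.8 ± 13.1% (SD, n = 16), with a lowest value of 38.5% in TBI− rat 5, a median of 60.5% and a highest value of 85.7% in TBI− rat 4. Divided by 3, the 3p and 5p counts behind the lowest share were 5 and 8. Those behind the highest share were 12 and 2. How much of the spread between rats is counting error was not tested. The 3p arm had more counts than the 5p arm in 10 rats, the same number in 4 and fewer in 2. Summed over the TBI rats of D2, 675 of 1074 counts (62.8%) were on the 3p arm. On D9 the sums were 12 of 24 counts.

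The share differed between the outcome groups by less than the spread. The mean share was 61.3 ± 9.10% in TBI+ and 60.5 ± 16.1% in TBI− rats (SD, n = 7 and 9), which is a difference of 0.750 percentage points (exact permutation test, two-sided p = 0.908).

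**Figure D2:**
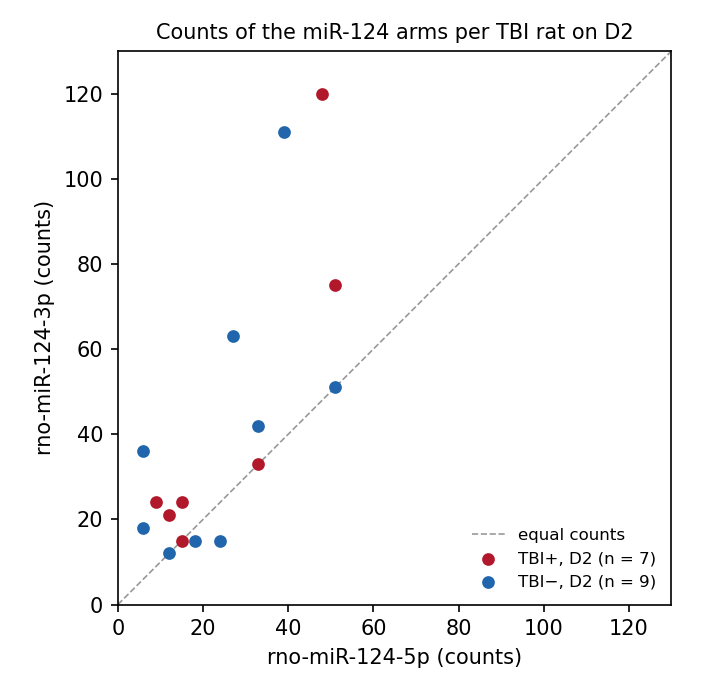
Counts of rno-miR-124-3p against counts of rno-miR-124-5p in each of the 16 TBI rats on D2, with the dashed line marking equal counts. Of the 16 points, 10 lie above the line, 4 on it and 2 below it.

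Among the TBI rats on D2, a higher 3p level went with a higher 5p level only loosely. Pearson's r was 0.41 (permutation p = 0.11) and Spearman's rho 0.44 (permutation p = 0.092; n = 16, adjusted p = 0.33 and 0.28 over the 3 relations tested). Without the 2 rats farthest from the median of the 5p arm, r was 0.51, and among the 8 rats of the second run of library numbers it was 0.01. The relation did not pass the threshold and did not hold within that run. The 5p levels rest on 6 to 51 counts, and how far counting error weakens the relation was not tested.

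The relation of the 3p level to the library total did not pass the threshold (r = 0.17, permutation p = 0.54; rho = 0.12, permutation p = 0.66; n = 16, adjusted p = 0.54 and 0.66). Without the 2 rats farthest from the median total, r was 0.07, and within the second run it was 0.28. Nor did it pass the threshold against the hemolysis index, the log2 ratio of miR-451-5p of red blood cells to miR-23a-3p (r = −0.29, permutation p = 0.28; rho = −0.35, permutation p = 0.18; n = 16, adjusted p = 0.42 and 0.28). Without the 2 rats farthest from the median index, r was −0.22, and within the second run it was 0.40, with the opposite sign.

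The hemolysis index moved with the day. Its mean was −0.28 ± 0.64 on D2 and 1.28 ± 0.63 on D9 in the 16 injured rats (SD). In the 4 sham-operated rats it was −0.52 ± 0.66 on D2 and 1.13 ± 0.23 on D9. The level of miR-451-5p itself went from 2783 ± 916 to 3133 ± 1394 CPM in sham rats (SD, n = 4). In TBI rats it went from 3343 ± 1475 to 5874 ± 3173 CPM (SD, n = 16). In both groups the index rose by more than miR-451-5p did, so its shift is in part that of miR-23a-3p. The index is therefore not a measure of red blood cell RNA alone. With the index as a covariate, the log2 fold change, D9 over D2 in TBI rats, was −4.78 for rno-miR-124-3p (edgeR adjusted p = 2.8e-07) and −3.35 for rno-miR-124-5p (edgeR adjusted p = 0.00014). Both arms were called with and without the covariate, while the number of miRNAs called in this comparison went from 186 to 46. Since the index and the day moved together, their parts cannot be told apart in this fit. MiR-28-3p, used by the study as its reference miRNA, was at 1105 ± 16.0 CPM in sham and 963 ± 96.7 CPM in TBI rats on D2, and at 882 ± 221 CPM and 928 ± 155 CPM on D9 (SD, n = 4 and 16).

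The miRNAs whose levels ran most like rno-miR-124-3p were sought by Spearman's rho of CPM over the 40 libraries, among 312 miRNAs with a mean of at least 5 CPM. The other arm, rno-miR-124-5p, had a rho of 0.83. The 5 highest were miR-129-2-3p (rho 0.82), miR-129-1-3p (0.81), miR-668 (0.78), miR-433-3p (0.75) and miR-129-5p (0.73). The 40 libraries fall into the same groups and days for every miRNA, which such a rho includes. Within the 16 TBI rats on D2, rho was 0.51, 0.50, 0.66, 0.46 and 0.10 in the same order. MiR-129 is a brain-enriched miRNA family, and miR-433 and miR-668 are encoded in the imprinted Dlk1-Dio3 region that is active in brain.

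Their mature sequences, from the RefSeq miRNA table of assembly GRCr8 and with the seed (bases 2 to 8) in capitals, show which of them share a seed.
rno-miR-129-2-3p: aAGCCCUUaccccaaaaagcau
rno-miR-129-1-3p: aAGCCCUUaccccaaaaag
rno-miR-668: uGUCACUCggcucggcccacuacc
rno-miR-433-3p: aUCAUGAUgggcuccucggugu
rno-miR-129-5p: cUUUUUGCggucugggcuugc
The 3p arms of miR-129-1 and miR-129-2 carry the same seed, and their counts may come in part from the same reads, so they are not separate observations. The other 3 seeds differ from it and from each other.

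Unlike miR-124, these miRNAs had counts in sham plasma, though not in every sham library. MiR-129-2-3p had a mean of 4.71 ± 4.19 CPM in sham rats (SD, n = 4) and 28.9 ± 16.0 CPM in TBI rats on D2 (SD, n = 16). It had counts in 3 sham libraries on D2 and in 1 on D9. Its sham mean on D2 lay below the highest floor of a sham library that day, 5.05 CPM. A lower level of miR-124 than of miR-129-2-3p in sham plasma is therefore not shown. MiR-129-5p had 14.0 ± 14.1 CPM in sham and 79.4 ± 31.2 CPM in TBI rats on D2, and 3.90 ± 3.83 CPM in TBI rats on D9. These levels are a description, since the miRNAs were picked for a pattern like that of miR-124.

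Other neural miRNAs were counted beside miR-124 in a list of 35 names, all of which were in the matrix. The list was chosen with earlier results of these data known. Its counts against all miRNAs, here and from D2 to D9, are therefore a description and not a test. On D2, 29 had counts and 8 were called higher in TBI than in sham rats, 0 lower, and 21 were not called (edgeR adjusted p below 0.05), against 18 of all 565 called higher (3.19%). The 8 include miR-129-1-3p and miR-129-2-3p, which are not separate observations. The median log2 fold change of the 29 was 1.09, or 0.85 with the 3 members at 0 in all sham rats set to their bound, against 0.09 over all 565 miRNAs. With the library total alone as the scaling, 8 were called higher and the median over all miRNAs was −0.02. Without sham rat 1, 5 members were called. The lowest adjusted p were those of miR-129-5p (0.00063), miR-129-1-3p (0.0025), miR-129-2-3p (0.0027), and the activity-regulated pair miR-132-3p (0.0039) and miR-212-3p (0.0039). The 3 of the miR-129 family are also among the miRNAs picked for their likeness to miR-124. MiR-132-3p went from 30.7 ± 13.2 CPM in sham to 67.1 ± 17.02 CPM in TBI rats, and miR-212-3p from 18.04 ± 1.59 to 39.2 ± 10.8 CPM (SD, n = 4 and 16).

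From D2 to D9 in TBI rats, 11 of the 30 neural members with counts were called lower, 0 higher, and 19 were not called, against 105 of all 581 called lower (18.1%). Their median log2 fold change was −0.51, or −0.41 with members at 0 on a day at their bound, against 0.06 over all 581 miRNAs. With the hemolysis index as a covariate, 5 were called lower, a count added after the data were seen. On D9 against sham rats, 0 of 29 were called higher and 1 lower, miR-7a-5p at 105 ± 193 CPM in sham rats (SD, n = 4), against 19 of all 541 called (3.51%), with a median of 0.28 (0.0 with 6 members at their bound) against 0.30 over all 541 miRNAs. MiR-7a-5p had counts in 3 of the 4 sham libraries of D9. Its call was lost without sham rat 2, where edgeR called 0 miRNAs. The most abundant member, miR-128-3p, made up most of the summed level of the list, which was 7705 ± 1620 CPM in sham and 8852 ± 3254 CPM in TBI rats on D2. On D9 the sum was 4188 ± 1310 CPM in sham and 7363 ± 2885 CPM in TBI rats (SD, n = 4 and 16). The members miR-9a-3p, miR-9b-3p, miR-9b-5p, miR-137-5p and miR-434-3p were at 0 in every library. Here and for the lists that follow, a count of 0 does not show that a miRNA was absent from plasma.

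Markers of other cells that could add RNA to plasma were counted in the same way, on D2 and D9 against sham rats and from D2 to D9 in TBI rats. Of the oligodendrocyte miRNAs, miR-219a-5p alone had counts and was not called in any of these comparisons, with a mean of 14.8 ± 6.20 CPM in sham and 12.4 ± 8.92 CPM in TBI rats on D2 (SD, n = 4 and 16). The other oligodendrocyte miRNAs, miR-219a-2-3p and miR-338-3p, were at 0 in every library. Of 5 red blood cell miRNAs, 4 were in the matrix, 0 of them were called on D2 or D9, and 4 were higher on D9 than on D2 in TBI rats, with a median log2 fold change of 0.73 against 0.06 over all miRNAs. Over all 581 miRNAs, 81 (13.9%) were called higher on D9, and with the RLE, library total or miR-28-3p scaling 3 of the 4 were. Their summed level in TBI rats had a lowest value, a median and a highest value of 10781, 24824 and 48279 CPM on D2 and of 17910, 41702 and 74325 CPM on D9, with miR-16-5p the most abundant. This list thus moved from D2 to D9 in the direction opposite to miR-124.

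Of 6 white blood cell and platelet miRNAs, 1, miR-150-5p, was called lower in TBI rats on D2 (edgeR adjusted p = 0.044), as were 17 of all 565 (3.01%), a call not made with the RLE or miR-28-3p scaling, while 2 were called lower with the hemolysis covariate. On D9, 0 of the 6 were called, and from D2 to D9 in TBI rats 5 were called higher, against 81 of all 581 (13.9%), with a median log2 fold change of 0.66. Their summed level had a median of 33901 CPM on D2 and 45064 CPM on D9 in TBI rats, and of 58248 CPM on D2 and 34575 CPM on D9 in sham rats. Of 7 muscle miRNAs, 5 had counts, 0 were called against sham rats on either day, and 3, miR-133b-3p, miR-208a-3p and miR-208b-3p, were called lower on D9 than on D2 in TBI rats, as were both arms of miR-124 and 105 of all 581 (18.1%). The median log2 fold change of these 5 was −1.75, and miR-1-3p and miR-133a-3p were at 0 in every library. The summed level of the muscle list in TBI rats had a lowest value, a median and a highest value of 155.7, 308 and 1424 CPM on D2 and of 36.9, 54.8 and 156.7 CPM on D9, with miR-133b-3p the most abundant. In sham rats the muscle sum was 242 ± 76.1 CPM on D2 and 110.3 ± 44.6 CPM on D9 (SD, n = 4). Unlike miR-124, this list thus had counts in sham plasma.

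Of the 2 liver miRNAs, miR-122-3p alone had counts, at 181 ± 19.1 CPM in sham and 415 ± 373 CPM in TBI rats on D2 (SD, n = 4 and 16). It was not called in any of these comparisons. Nor was the endocrine marker miR-375-3p, at 3267 ± 549 CPM in sham and 3882 ± 2796 CPM in TBI rats on D2. MiR-122-5p was at 0 in every library, so the liver list was tested without it. With the hemolysis index as a covariate, 0 red blood cell, 0 white blood cell and platelet, 2 muscle (lower) and 1 endocrine (higher) miRNAs were called between the days in TBI rats (edgeR), in a fit that called 46 of 581 miRNAs. The index contains miR-451-5p, a member of the red blood cell list, so the count of 0 for that list follows in part from the fit and says nothing of its own. The part of blood cells, muscle or other tissues in the fall of miR-124 was not tested beyond that fit.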

How the data were processed

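Small RNA from the plasma of 20 rats, 1 library per rat and day, was analysed from the counts per mature miRNA that the authors deposited without normalization. The authors trimmed the reads with Trimmomatic 0.36 after FastQC 11.8, merged both flow cells per sample, aligned with Bowtie2 to the rat genome Rno6 and counted over miRBase miRNAs with featureCounts. Counts were scaled to CPM by library totals. These totals and floors of 3 counts are given in the report.

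Each test used all miRNAs with any count (565 on D2, 541 on D9, 581 over both days) and all libraries of the day or of both days, with edgeR 4.0.16 (quasi-likelihood, TMM, R 4.3.3) and Benjamini-Hochberg adjustment, and miRNAs with an adjusted p below 0.05 were called. The SE of a log2 fold change was its size divided by the root of the F statistic. The edgeR steps were tested on simulated data. Levels were compared by two-sided exact permutation tests adjusted over the family of 26, and correlations by permutation with 100000 resamples. An interval of a difference of means holds the shifts that the exact permutation test did not reject. Alternatives were DESeq2 1.42.0, other scalings, filterByExpr, miR-124 counts divided by 3, thinning to the smallest library with seed 1, the hemolysis index log2((miR-451-5p + 1)/(miR-23a-3p + 1)) of the counts as a covariate, each sham rat left out, replicate blocks and single runs of library numbers, a division made here that the labels do not give. Python 3.11.15, scipy 1.17.1, numpy 2.4.6, pandas 2.3.3 and matplotlib 3.10.9 were used for the rest.

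MiRNAs were named by rule: both arms, the 5 most alike in pattern, the 5 neural list members with the lowest adjusted p on D2, and the reference and hemolysis miRNAs. Other names are list members at 0 or called, and were chosen after their values were seen. The members and lists were chosen with earlier results of these data known. D2 and D9 libraries pair because the labels give the same rat. Deviations of the libraries of a rat from their group means, over 314 miRNAs, had a median correlation of −0.04. The pairing thus rests on the labels alone. There were 0 pairs of identical libraries.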

Additional observations from a re-analysis of the deposited data

Results flagged for a closer look

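The miR-124-5p level of TBI+ rat 4 on D9, 11.01 CPM, stood far from the other 6 rats of its group, which were all at 0. It rests on 6 counts. The miR-124-3p level of TBI− rat 4 on D9, 6.11 CPM, stood far above the next rat of its group at 1.94 CPM, and rests on 3 counts in a library of 491342 counts. TBI− rat 9, at 1.94 CPM, also had 3 counts, so these levels differ by library total alone. Of 28 groups of values examined for such a library, 2 held one. The measure used finds one by chance in about 1 in 20 groups of normally distributed values, which does not apply to these groups, in which most rats were at 0 and a rat with few counts can stand far from the others.

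The change in level from D2 to D9 differed between TBI and sham rats, by −30.3 CPM for miR-124-3p and by −18.2 CPM for miR-124-5p (TBI minus sham; exact permutation of the injury labels, two-sided p = 0.00041 for each, n = 16 and 4). All sham libraries were at 0 on both days, with floors of up to 21.3 CPM on D9. The sham change is thus known only within those floors, and the test largely repeats the separation on D2.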

How the results depend on the processing

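On D2, both arms were called against sham rats, in all TBI, TBI+ and TBI− rats, under every alternative run, with edgeR or DESeq2 adjusted p of at most 0.00073. With all TBI rats, leaving out each sham rat gave 1.8e-05 to 3.6e-05 for 3p and 4.1e-05 to 8.5e-05 for 5p. The fall from D2 to D9 in TBI rats was also called under every alternative run, with log2 fold changes of −5.62 to −3.996 for 3p and −5.03 to −3.35 for 5p. In TBI+ rats the edgeR adjusted p for 5p was 0.029 with the hemolysis covariate and lower under the others. On D9 no alternative called an arm. There, DESeq2 gave no adjusted p against sham rats, filterByExpr removed both arms and thinning removed 3p. Dividing the miR-124 counts by 3 moved the D2 means of TBI rats to 10.4 CPM (3p) and 6.43 CPM (5p), and the lower bounds to 2.95-fold and 1.83-fold (all TBI), 3.03-fold and 1.83-fold (TBI+), and 2.89-fold and 1.83-fold (TBI−). Between TBI+ and TBI− rats on D2 the uncalled log2 fold change changed sign. For 3p it was 0.026 with DESeq2, 0.024 with RLE, 0.060 with the library total, 0.047 with miR-28-3p scaling and 0.0087 with filterByExpr, and −0.022 to 0.037 without a sham rat. For 5p it was 0.0048 with the library total, 0.026 with miR-28-3p scaling and 0.28 in the second run of library numbers. On D9 the sign changed for 3p with DESeq2 (adjusted p = 0.994) and in the first run (edgeR adjusted p = 0.548), and for 5p with the hemolysis covariate (0.971) and in the first run (0.548). DESeq2 called the change of the TBI-sham difference between the days (adjusted p = 0.00029 for 3p, 0.0032 for 5p), which edgeR could not estimate. As given above, its estimates exceeded its own fall in TBI rats, so this call does not measure a change in sham rats. The cause of the changes between settings was not tested.

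Samples of different groups that share an animal number had correlations of their deviations between −0.39 and 0.31. These cannot tell whether the number pairs samples, since the libraries of the same rat had −0.24 to 0.38. With the number as a replicate block, the D2 log2 fold change, TBI+ over TBI−, was 0.012 for 3p and 0.16 for 5p, with 3 in place of 0 miRNAs called, and on D9 the edgeR adjusted p for 5p was 0.986, with its sign changed. The block moved the D9 calls against sham rats from 19 to 7, in TBI+ from 10 to 4 and in TBI− from 26 to 6. The rat as a block changed no call of an arm. Counts of called miRNAs also moved by over 1.5 times elsewhere. On D2 the 35 calls (18 higher, 17 lower) became 23 with miR-28-3p scaling (17 and 6) and 21 without sham rat 1, the 18 in TBI+ became 34 with DESeq2 and 11 without sham rat 1, and the 35 in TBI− became 23 without sham rat 1. On D9 the 19 became 29 with miR-28-3p scaling, the 10 in TBI+ became 16 (RLE), 18 (thinned) and 3 (filterByExpr), and the 26 in TBI− became 17 without sham rat 1. Without sham rat 2 each D9 count against sham rats was 0. From D2 to D9, 186 calls became 39 higher and 73 lower thinned and 46 with the hemolysis covariate, 93 in TBI+ became 43 and 29, and the 42 higher and 75 lower in TBI− became 77 and 31 in all. The 22 calls of the changed difference became 5 thinned and 8 to 12 without a sham rat, and the 0 calls of its counterpart between TBI+ and TBI− became 1 with DESeq2 and 1 with the hemolysis covariate. The scaling moved the split of higher and lower calls in TBI+ on D2 from 13 and 5 to 12 and 8 (library total), in all TBI rats on D9 from 6 and 13 to 4 and 21 (RLE), 4 and 19 (library total) and 2 and 27 (miR-28-3p), in TBI− on D9 from 7 and 19 to 3 and 21 (RLE) and 1 and 20 (miR-28-3p), and of the changed difference from 11 and 11 to 4 and 15 (RLE) and 4 and 18 (miR-28-3p). List counts under alternatives were chosen after the data were seen. Of the 5 most alike miRNAs, 4 were kept by Pearson's r and 3 by rho over the D2 libraries.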
